A study of Mus musculus with 16 samples.

Results

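Cardiac fibroblasts with a TCF21 transgene were compared with control fibroblasts in mouse hearts infused with angiotensin II and phenylephrine, in 5 of the 16 libraries of the series: 2 with TCF21 gain and 3 controls. The 5 libraries are those of the table that holds this pair of groups, and sample labels gave each its group. All 5 came from hearts of mice aged 8 to 12 weeks that carried the tamoxifen-inducible Cre Pdgfra-creERT, which acts in cells that express the PDGF receptor Pdgfra, and a Rosa26 reporter in which Cre activity switches on EGFP, by which the cells were sorted. The gain mice also carried Col1a1-TCF21, from which TCF21 is made after tamoxifen, and all mice had tamoxifen followed by 1 week of angiotensin II and phenylephrine, agents that raise blood pressure and drive fibrosis. Controls therefore shared the Cre, the reporter, tamoxifen and the infusion, and no uninfused heart is in this comparison. Neither the species of the transgene's TCF21 sequence nor the number or sex of the mice behind a library is stated in the labels. The other 11 libraries compare fibroblasts without Tcf21 with their own controls, also from mice aged 8 to 12 weeks. Of these, 5 had 1 week of the same infusion and are set beside the gain results. They are 2 libraries with loss, through Tcf21-MerCreMer and floxed Tcf21, and 3 controls with that Cre alone.

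TCF21 is a basic helix-loop-helix transcription factor that pairs with E proteins such as TCF12 on E-box sequences. In the embryo it is needed for epicardial cells to become cardiac fibroblasts, and in the adult heart it marks resting fibroblasts. Injury or pressure overload drives resting fibroblasts to proliferate and to become myofibroblasts, which contract through smooth muscle actin and secrete collagens, periostin and other matrix, and later matrifibrocytes, which express genes of cartilage and tendon. The comparison asks which genes differ when TCF21 is forced in fibroblasts under that stimulus.

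Tcf21 itself, on chromosome 10 from 22817281 to 22820174 on the minus strand of GRCm38, was higher in both gain libraries. Its normalized count, the unit of every expression value given here, was 6058, 5145 and 6235 in the controls and 14819.6 and 13502 with TCF21 gain. This 2.44-fold rise was larger than the spread within either group (log2 fold change 1.29 with SE 0.109, adjusted p = 0.00446, limma with Benjamini-Hochberg adjustment over all genes tested). Pdgfra, whose regulatory sequences drive the Cre, was 18317, 14217 and 22330.4 in the controls and 20274 and 19585 with TCF21 gain, a log2 fold change of 0.15 that did not pass (adjusted p = 0.703).

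Library totals were 37429723 to 40970391 and Pearson's r between libraries on the log2 scale was 0.966 to 0.984. The first principal component of the 5 libraries held 46.6% of the variance and separated gain from control, and the second, with 23.1%, separated control 3 from control 1. All 13 cardiac fibroblast markers were above 0 in every library, and their summed level was 4532799.5 to 4809494 in the controls and 3224444 to 3487779.5 with TCF21 gain. That sum rests mostly on Col3a1, Col1a2, Col1a1 and Gsn. The median log2 fold change of the 13 was -0.27, with 10 below the control level. Of 15369 genes tested, 637 (4.14%) passed an adjusted p of 0.05, 242 higher (1.57%) and 395 lower (2.57%) with TCF21 gain. Without control 1 the count was 215 and the split turned to 116 higher and 99 lower. The count depended most on the variance trend, a setting of limma: without it 25 genes passed, 11 higher and 14 lower. Of the 134 genes that passed and were named by the rules given under processing, 9 still did so, and Tcf21 itself did not (adjusted p = 0.0623, limma). Genes named on other grounds are not among the 134. When each library was rescaled to the same total the split was 340 higher and 266 lower, and the median log2 fold change of all genes moved from 0.0066 to 0.10; no gene called in the deposited scaling changed direction. Groups did not overlap in 39.3% of all genes. They overlapped in none of the 242 genes called higher or the 395 called lower, so lack of overlap adds nothing to a call. The test was repeated with each library left out, and a call said to be lost without several libraries was lost in each fit that left out 1 of them. P-values come from 2 against 3 libraries and measure only the spread between them, and a change of gene expression per cell cannot be told apart from fewer or more cells of a type among those sorted.

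**Figure D1:**
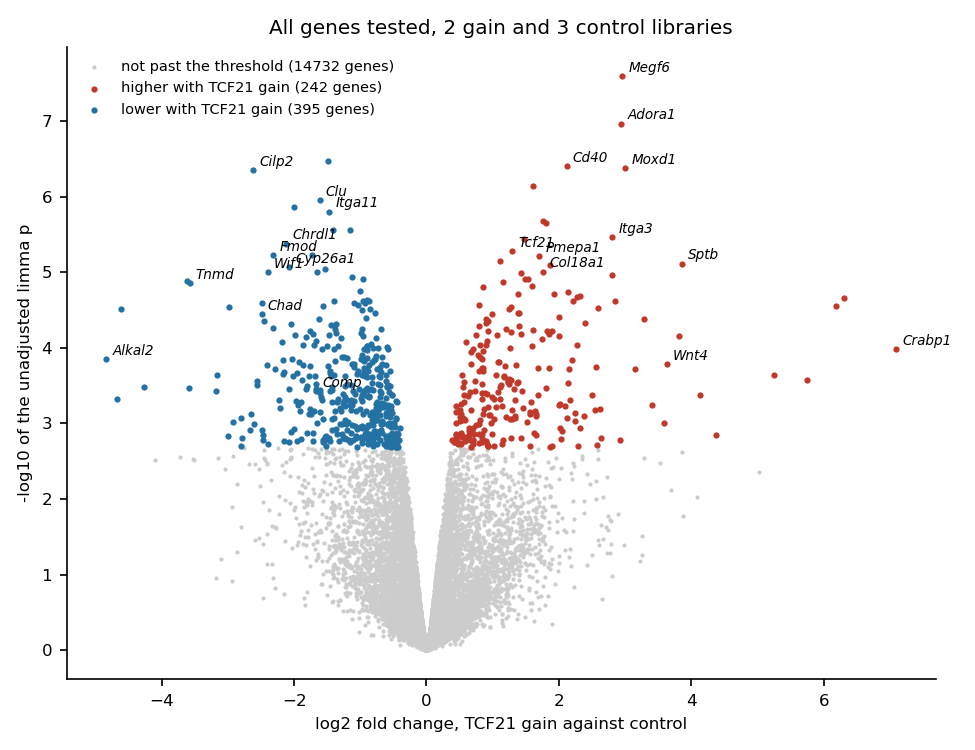
Each point is 1 of the 15369 genes tested, with the log2 fold change of TCF21 gain against control on the x axis and -log10 of the unadjusted limma p on the y axis. Red points are the 242 genes that were higher, blue points the 395 that were lower, and grey points did not pass an adjusted p of 0.05. Megf6 and Adora1 stand highest, and Crabp1 lies farthest to the right.

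Genes nearly silent in the control fibroblasts showed the greatest rises. Crabp1, which binds retinoic acid in the cytoplasm, was 47.5, 21.9 and 2.97 in the controls and 1669 and 3021 with TCF21 gain, a 97.2-fold difference of means (log2 fold change 7.10 with SE 0.934, adjusted p = 0.0115). The controls lay far below both gain libraries. Arpp21, an RNA-binding phosphoprotein best known from neurons, was 1.91, 0.521 and 5.21 in the controls and 211 and 265 with TCF21 gain. Sptb, the beta chain of erythroid spectrin, was 18.6, 38.9 and 27.2 in the controls and 411 and 398 with TCF21 gain, and the receptor-like lectin Fibcd1 was 10.1, 11.3 and 4.695 in the controls and 133 and 123 with TCF21 gain. Wnt4, a secreted Wnt ligand, was 25.1, 10.97 and 36.3 in the controls and 218 and 359 with TCF21 gain (log2 fold change 3.63 with SE 0.512, adjusted p = 0.0147). Hmga1b was 0, 2.02 and 1.98 in the controls and 148 and 154 with TCF21 gain, but it is a near copy of Hmga1, which was 307, 374 and 441 in the controls and 212 and 178 with TCF21 gain, so the assignment of reads between the pair is uncertain. Among genes with higher control levels, Megf6, a secreted protein with EGF-like repeats, was 2136, 1774 and 1717 in the controls and 13632 and 15436 with TCF21 gain and had the smallest p of all genes (log2 fold change 2.96 with SE 0.118, adjusted p = 0.000387). Adora1, the adenosine A1 receptor, was 314, 239 and 273 in the controls and 2128 and 2084 with TCF21 gain, with no overlap and little spread within either group (7.65-fold). Moxd1, a monooxygenase related to dopamine beta-hydroxylase, rose 8.06-fold and the channel-like membrane protein Tmc3 9.28-fold. Sptb, Moxd1, Megf6 and Adora1 passed in each of the 5 leave-one-out fits. Crabp1, Hmga1b, Fibcd1 and Wnt4 lost the call without gain 1 or gain 2 (log2 fold changes 3.27 to 7.53), and Arpp21 and Tmc3 without gain 2 (3.19 to 6.14).

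Of the 10 steepest falls, Tnmd, Cnmd, Cilp2 and Matn3 belong to genes of tendon and cartilage. Tnmd, tenomodulin, was 518, 443 and 401 in the controls and 24.1 and 56.2 with TCF21 gain, an 11.3-fold fall (log2 fold change -3.58 with SE 0.349, adjusted p = 0.00556). Its closest relative Cnmd, chondromodulin, was 363, 377 and 741 in the controls and 55.1 and 60.5 with TCF21 gain (8.53-fold). Cilp2, a matrix protein of cartilage, was 515, 549.6 and 568 in the controls and 89.96 and 85.8 with TCF21 gain and fell 6.19-fold (log2 fold change -2.62 with SE 0.156, adjusted p = 0.00114). Matn3, the cartilage matrix protein matrilin-3, was 357, 413 and 134 in the controls and 36.01 and 49.4 with TCF21 gain. Alkal2, a ligand of the receptor tyrosine kinases ALK and LTK, was 90.6, 36.6 and 176 in the controls and 2.05 and 1.88 with TCF21 gain, without overlap although the controls spread widely. The pantetheinase Vnn1 was 68.6, 76.8 and 119 in the controls and 3.003 and 11.9 with TCF21 gain and the alcohol dehydrogenase Adh1, which oxidizes retinol, 251, 107 and 458 in the controls and 40.1 and 26.7 with TCF21 gain. Sntg2 fell 6.48-fold, the potassium channel Kcna2 6.03-fold and the proton pump subunit Atp6v0e2 6.25-fold. Whichever library was left out, Tnmd, Cnmd and Cilp2 still passed. Alkal2, Adh1 and Atp6v0e2 lost the call without control 1, gain 1 or gain 2 (log2 fold changes -4.88 to -2.25), and Vnn1 without control 1 or gain 1 (-3.75 to -2.75). Sntg2 lost the call without control 1, control 2 or gain 1 (log2 fold changes -2.67 to -2.01), and Kcna2 without control 1, control 2, control 3 or gain 1 (-2.84 to -1.91). Matn3 lost the call without control 1, control 2, gain 1 or gain 2 (log2 fold changes -2.87 to -2.35).

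The 250 bases upstream of the start are shown for 3 risers and 3 fallers, taken in order of fold change from RefSeq's promoter table on GRCm38.p6, to let the E-boxes that helix-loop-helix factors recognise be seen in place. Genes with several starts (Arpp21), with a near copy (Hmga1b) or with no entry (Vnn1) were passed over, which was decided after their values were seen. Letters run 5′ to 3′ toward the start, and capitals mark each CANNTG, which reads the same on both strands.
Crabp1 (chr9:54764498-54764747, plus strand): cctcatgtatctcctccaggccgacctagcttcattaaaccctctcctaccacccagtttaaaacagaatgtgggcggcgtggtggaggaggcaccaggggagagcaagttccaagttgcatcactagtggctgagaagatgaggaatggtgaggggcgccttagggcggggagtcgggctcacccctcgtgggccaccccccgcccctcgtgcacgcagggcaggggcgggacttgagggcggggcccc
Sptb (chr12:76710548-76710797, minus strand): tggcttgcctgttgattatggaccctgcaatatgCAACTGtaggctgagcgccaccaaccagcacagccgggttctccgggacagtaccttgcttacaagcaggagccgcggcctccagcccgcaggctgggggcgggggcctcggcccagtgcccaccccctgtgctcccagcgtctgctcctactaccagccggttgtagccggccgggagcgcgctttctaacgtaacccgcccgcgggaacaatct
Fibcd1 (chr2:31846006-31846255, minus strand): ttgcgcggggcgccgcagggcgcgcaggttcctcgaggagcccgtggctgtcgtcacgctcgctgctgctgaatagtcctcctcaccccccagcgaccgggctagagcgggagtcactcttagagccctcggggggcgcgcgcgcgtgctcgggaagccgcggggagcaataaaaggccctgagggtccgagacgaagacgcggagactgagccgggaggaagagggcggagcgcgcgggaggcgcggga
Alkal2 (chr12:30884074-30884323, plus strand): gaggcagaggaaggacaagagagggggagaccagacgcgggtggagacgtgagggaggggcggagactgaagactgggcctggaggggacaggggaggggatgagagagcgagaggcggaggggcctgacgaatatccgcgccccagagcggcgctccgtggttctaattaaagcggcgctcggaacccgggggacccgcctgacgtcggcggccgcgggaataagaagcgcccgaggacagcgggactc
Tnmd (chrX:133850758-133851007, plus strand): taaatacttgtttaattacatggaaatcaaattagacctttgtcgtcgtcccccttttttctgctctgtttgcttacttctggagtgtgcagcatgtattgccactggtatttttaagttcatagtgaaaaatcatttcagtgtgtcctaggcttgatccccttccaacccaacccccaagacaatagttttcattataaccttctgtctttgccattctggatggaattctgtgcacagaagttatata
Cnmd (chr14:79662184-79662433, minus strand): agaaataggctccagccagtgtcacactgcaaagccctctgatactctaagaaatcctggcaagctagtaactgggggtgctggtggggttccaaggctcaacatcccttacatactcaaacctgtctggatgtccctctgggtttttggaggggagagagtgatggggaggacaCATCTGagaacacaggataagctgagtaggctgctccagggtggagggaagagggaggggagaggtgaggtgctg

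In these windows Sptb held CAACTG at position -216 and Cnmd held CATCTG at position -75 from the start, and the other 4 held no CANNTG. Shares were taken over windows of 250 bases before to 50 after the start. CANNTG was present in 68.0% of 259 promoters of genes that rose, 67.1% of 398 promoters of genes that fell and 64.9% of 15042 promoters of genes tested. Its share was 72.3% of all 32851 in the RefSeq table. The 3 sets came from 177, 297 and 11677 genes with an entry, and a gene with several starts counts once per start. The narrower CAGCTG was present in 20.5%, 18.1% and 15.9% of the same 3 sets, and in 16.3% of the whole table. A match describes letters only, and binding was not measured.

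Cartilage, bone and tendon genes, a set that matrifibrocytes also express, included several falls: 7 of 30 tested fell and none rose, with a median log2 fold change of -0.75 against 0.0066 for all genes. Beyond Tnmd, Matn3 and Cilp2 they were Chad, Fmod, Comp and Cytl1. Fmod, fibromodulin, a proteoglycan that binds collagen fibrils, was 52307, 74084 and 45181 in the controls and 11532 and 10952 with TCF21 gain. The lowest control stood well above the higher gain library, a 5.09-fold fall of the mean (log2 fold change -2.32 with SE 0.1995, adjusted p = 0.00446). Comp, a pentameric matrix protein of cartilage and tendon, was 26508, 37318 and 22312 in the controls and 11452 and 6799 with TCF21 gain (log2 fold change -1.67 with SE 0.268, adjusted p = 0.0205). Chad, chondroadherin, was 1206, 1235 and 1698 in the controls and 174 and 334 with TCF21 gain, a 5.42-fold fall. In the family of small leucine-rich proteoglycans, which coat and space collagen fibrils, 5 of 15 fell and none rose (median -0.69). These were Chad, Fmod, Epyc (532, 696 and 580.2 in the controls and 169 and 279 with TCF21 gain), Ogn (81898, 83155 and 67005 in the controls and 41901 and 41582 with TCF21 gain) and Ecm2 (12719.9, 11858 and 11820.2 in the controls and 7583 and 7455 with TCF21 gain). With each library left out in turn, Fmod and Chad passed in all 5 fits. Comp lost the call without control 1 or gain 2 (log2 fold changes -1.71 to -1.29), and Cytl1 without gain 2 (-0.85). Epyc lost the call without control 1 or gain 1 (log2 fold changes -1.55 to -1.10), and Ogn without control 1, gain 1 or gain 2 (-0.89 to -0.84). Ecm2 lost the call without gain 1 or gain 2 (log2 fold changes -0.70 to -0.68).

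**Figure D2:**
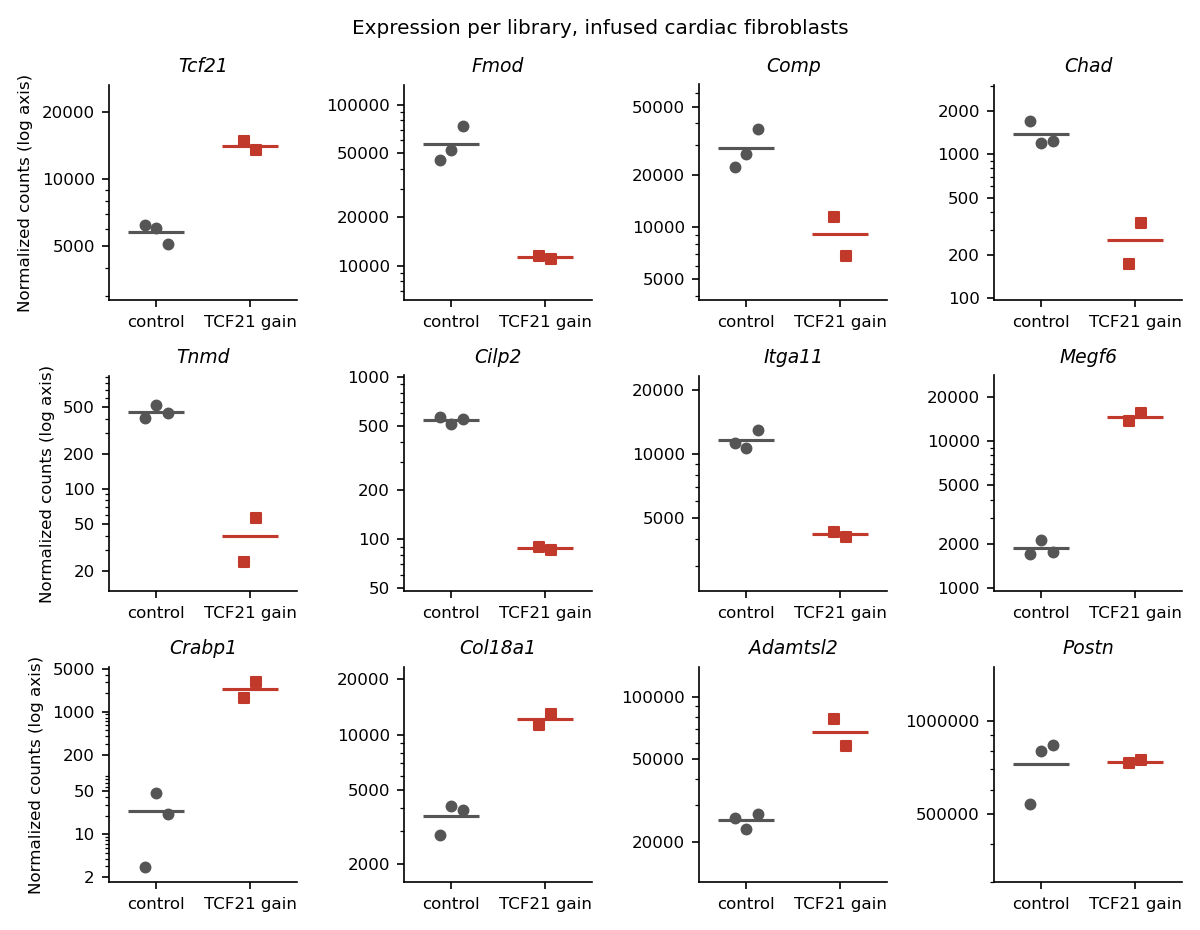
Each panel gives the normalized counts of 1 gene on a log axis, with grey circles for the 3 control libraries, red squares for the 2 TCF21 gain libraries and a line at each group mean. Fmod, Comp, Chad, Tnmd, Cilp2 and Itga11 lie lower and Tcf21, Megf6, Crabp1, Col18a1 and Adamtsl2 higher with TCF21 gain without overlap, while the groups overlap for Postn.

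The matrix glycoproteins that passed fell too. Of 49 tested, 7 fell and none rose (median -0.33). Besides Cilp2 and Comp, they were Abi3bp (18906, 23007 and 13319.7 in the controls and 5173 and 5799 with TCF21 gain), the matricellular protein Ccn3 (1722, 1801 and 1090.4 in the controls and 499 and 311 with TCF21 gain), the integrin ligand nephronectin, Npnt (168, 211 and 181 in the controls and 56.5 and 45.2 with TCF21 gain), Tgfbi (6383, 5795 and 8433 in the controls and 2961 and 3834 with TCF21 gain) and Ltbp1, which tethers latent TGF-beta to the matrix (17855, 14547 and 18625 in the controls and 10688 and 11616 with TCF21 gain). Fn1, fibronectin, was 479111, 556647 and 329419 in the controls and 249088 and 306549.9 with TCF21 gain, below the controls in both gain libraries but not past the threshold (log2 fold change -0.69, adjusted p = 0.261). Cilp was 234982, 265722 and 278203 in the controls and 167019 and 173283 with TCF21 gain (adjusted p = 0.139) and Thbs4 69771, 77246 and 46668 in the controls and 49612 and 63885 with TCF21 gain (adjusted p = 0.753), and neither passed. Ccn3 lost the call without control 1 or gain 2 (log2 fold changes -1.83 to -1.59), and Npnt without gain 2 (-1.70). Abi3bp lost the call without gain 1 or gain 2 (log2 fold changes -1.80 to -1.63), and Tgfbi without control 1, gain 1 or gain 2 (-1.20 to -0.82). Ltbp1 lost the call without control 1, control 3, gain 1 or gain 2 (log2 fold changes -0.66 to -0.53).

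Collagen chains moved in both directions. Of 32 tested, 3 rose, 3 fell and the median was 0.0045 (leave-one-out fits gave -0.074 to 0.062). Col18a1, the basement membrane collagen from which endostatin is cut, was 4133, 3908 and 2860.2 in the controls and 11318 and 13001 with TCF21 gain (log2 fold change 1.76 with SE 0.163, adjusted p = 0.005197). Col26a1 was 1117, 1466 and 1029 in the controls and 3893 and 4837 with TCF21 gain and Col28a1 66.3, 64.96 and 57.96 in the controls and 282 and 279 with TCF21 gain, so both rose clear of the controls (3.63-fold and 4.45-fold). Col22a1, a collagen of tissue junctions such as muscle to tendon, was 1125, 1308 and 733 in the controls and 336 and 237 with TCF21 gain. Col8a2, a short-chain network collagen, was 18704, 26106 and 16829.5 in the controls and 8698 and 10591 with TCF21 gain, and Col6a6 was 2759, 2102 and 4483 in the controls and 780.4 and 1282 with TCF21 gain. The fibrillar chains that make up scar did not pass: Col1a1 was 627811, 766929 and 560338 in the controls and 511511 and 590702 with TCF21 gain (log2 fold change -0.23, adjusted p = 0.734) and Col3a1 1915089.9, 2103005 and 1407399 in the controls and 1214602 and 1445431 with TCF21 gain (log2 fold change -0.43, adjusted p = 0.671). For Col1a1 and Col3a1 gain 1 lay below the control range and gain 2 within it. Col1a2, chosen after its values were seen, was 768693.5, 903686.5 and 600359.1 in the controls and 491370.5 and 557010.2 with TCF21 gain. Both gain libraries lay below every control for Col1a2, which did not pass either. Of 31 genes that modify, fold or crosslink collagen, 2 fell, the glycosyltransferase Colgalt2 (2027, 1459 and 2172 in the controls and 791 and 771 with TCF21 gain) and the prolyl hydroxylase subunit P4ha2 (2039, 1912 and 2135 in the controls and 1342 and 1191 with TCF21 gain), and none rose. Whichever library was left out, Col18a1 and Col26a1 still passed. Col6a6, Col8a2, Colgalt2 and P4ha2 lost the call without control 1, gain 1 or gain 2 (log2 fold changes -1.92 to -0.59), and Col28a1 without gain 2 (2.15). Col22a1 lost the call without control 1 or gain 2 (log2 fold changes -1.79 to -1.61).

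The few basement membrane and elastic fibre genes that passed were higher with TCF21 gain. Over all genes tested 1.57% rose and 2.57% fell, and so few calls are not read as a result about either list. Of 18 laminin and basement membrane genes, 2 rose and none fell, with a median of 0.28: Col18a1, and the laminin gamma chain Lamc3 (393, 225 and 549 in the controls and 2445 and 1233 with TCF21 gain, 4.73-fold). Of 15 elastic fibre genes 1 rose, fibrillin-2, Fbn2 (5087, 6082 and 4249 in the controls and 8145 and 8422 with TCF21 gain). The median of the elastic fibre list was -0.090, and 9 of the 15 lay below the control level. Eln, elastin, was 97609, 125709 and 99646 in the controls and 214039 and 176078 with TCF21 gain, without overlap but short of the threshold (log2 fold change 0.86, SE 0.192, adjusted p = 0.0566). It passed in 6 of the alternative analyses, among them library weights (adjusted p = 0.0367), equal library totals (0.0345) and no filter on low values (0.0471), and its adjusted p was up to 0.301 in the others. Among integrins, the receptors by which cells hold these matrices, 1 of 19 rose and 1 fell. Itga3, the alpha chain of a laminin receptor, was 198, 240.4 and 145 in the controls and 1458 and 1223 with TCF21 gain, a 6.89-fold rise (log2 fold change 2.80 with SE 0.224, adjusted p = 0.00346). Itga11, the alpha chain of a collagen receptor of fibroblasts, was 10700.3, 13008 and 11269 in the controls and 4324 and 4083 with TCF21 gain (log2 fold change -1.47 with SE 0.105, adjusted p = 0.00242). With each library left out in turn, Itga3 and Itga11 passed in all 5 fits. Lamc3 and Fbn2 lost the call without control 1, gain 1 or gain 2 (log2 fold changes 0.68 to 2.74).

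Matrix proteases and their inhibitors gave 1 rise and 5 falls among 43 tested. Adamtsl2, a secreted protein related to the ADAMTS proteases that binds fibrillin and LTBP1, was 22983, 27228 and 26178 in the controls and 77781 and 57679 with TCF21 gain, 2.66-fold higher (log2 fold change 1.40 with SE 0.156, adjusted p = 0.007595). The protease Adamts16 was 1104, 1298 and 637 in the controls and 183 and 169 with TCF21 gain and the metalloprotease Mmp11 2006, 2001 and 2853 in the controls and 1122 and 1179 with TCF21 gain. Timp3, the matrix-bound inhibitor of metalloproteases, was 57566, 61153 and 47809 in the controls and 25631 and 18607 with TCF21 gain, and both gain values lay below every control. Of the protease-like proteins without catalytic domains, Adamtsl3 was 7880.2, 7889 and 5180.4 in the controls and 2536 and 2660.2 with TCF21 gain and Adamtsl4 7464, 6621 and 6723 in the controls and 4780.4 and 3572 with TCF21 gain. Adamtsl2 passed in each of the 5 leave-one-out fits. Adamts16 and Timp3 lost the call without gain 2 (log2 fold changes -2.40 to -1.11), and Mmp11 without control 1, gain 1 or gain 2 (-1.05 to -0.93). Adamtsl3 lost the call without gain 1 or gain 2 (log2 fold changes -1.43 to -1.37), and Adamtsl4 without control 1 or gain 2 (-0.69 to -0.53).

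Genes that mark activated fibroblasts and matrifibrocytes were the pathway list with the lowest median, -0.84, and 8 of 29 fell and 1 rose. The 8 were Cthrc1, Fap, Comp, Chad, Fmod, Cilp2, Angptl7 and Fgf18, many of which the preceding lists share. Cthrc1, a secreted protein of activated fibroblasts, was 31889, 36828 and 16946 in the controls and 9188 and 10614 with TCF21 gain, and Fap, the fibroblast activation protease, was 2633, 2834 and 2597 in the controls and 1226 and 1699.9 with TCF21 gain. Meox1, a homeobox factor induced in stressed fibroblasts, was the riser, at 10696, 11912 and 11173 in the controls and 14927 and 15231 with TCF21 gain (1.34-fold, log2 fold change 0.42 with SE 0.0882, adjusted p = 0.0458). Postn, periostin, the usual mark of the activated state, was 803039.6, 837243 and 539448 in the controls and 733887 and 746592 with TCF21 gain, with a log2 fold change of 0.054 and an adjusted p of 0.956; the 95% interval was -0.77 to 0.88. Control 3 had the lowest Postn of the 5 libraries, and its direction turned without that library (log2 fold change -0.15). Contractile genes of myofibroblasts gave 2 rises and no fall in 30 (median 0.066, and -0.067 to 0.21 over the leave-one-out fits): the transcription factor Srf (721, 664 and 687 in the controls and 1019 and 1019 with TCF21 gain) and the actin-binding Tagln2 (15386, 14615 and 13721 in the controls and 23613 and 23947 with TCF21 gain). Acta2, smooth muscle actin, was 6578, 6743 and 2963 in the controls and 5096 and 7095 with TCF21 gain, with control 3 again apart from the other controls (log2 fold change 0.24, adjusted p = 0.7603, and -0.15 without control 3). Of 34 genes of resting and adventitial fibroblasts, 1 rose, Tcf21 itself, and 2 fell (median -0.46, and -0.68 to -0.25 over the leave-one-out fits). In all, 28 of the 34 lay below the control level. Relative to the control mean, the list median was 0.068, -0.37 and 0.30 in the controls and -0.27 and -0.68 with TCF21 gain. Gain 1 thus lay within the control range. Whichever library was left out, Fgl2 and Bmper still passed. Meox1 and Srf lost the call without control 1, control 2, gain 1 or gain 2 (log2 fold changes 0.39 to 0.59), and Cthrc1 without control 1, control 2, gain 1 or gain 2 (-1.56 to -1.23). Fap lost the call without control 1 or gain 1 (log2 fold changes -0.91 to -0.66), and Angptl7 without control 1 (-2.11). Fgf18 lost the call without control 1 or gain 2 (log2 fold changes -1.07 to -0.97), and Tagln2 without gain 1 or gain 2 (0.70 to 0.72).

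In the TGF-beta pathway, a main driver of the myofibroblast state, ligands moved apart. Tgfb1 was 1707, 1569 and 1887 in the controls and 2533 and 2516 with TCF21 gain (log2 fold change 0.56 with SE 0.102, adjusted p = 0.0311), whereas Tgfb2 was 1828, 1656 and 1497 in the controls and 1156 and 1131 with TCF21 gain and Tgfb3 37948, 44584 and 35323 in the controls and 22869.8 and 23728 with TCF21 gain, both lower. Fst, follistatin, a soluble inhibitor of activins, was 1288, 1734 and 925 in the controls and 313 and 299.9 with TCF21 gain, a 4.29-fold fall. Pmepa1, a target of the pathway that restrains SMAD signalling, was 4948, 3594 and 3648 in the controls and 12601 and 13656 with TCF21 gain, 3.23-fold higher (log2 fold change 1.71 with SE 0.148, adjusted p = 0.00446). Including Tgfbi and Ltbp1, 2 of 34 rose and 5 fell, with a median of 0.023 (leave-one-out fits gave -0.04 to 0.14). Ccn2, another classical target, was 130708, 166579.7 and 119731 in the controls and 172607 and 133829 with TCF21 gain, and its groups overlapped (log2 fold change 0.14, adjusted p = 0.767). With each library left out in turn, Pmepa1 passed in all 5 fits. Tgfb1 lost the call without control 1, control 2, gain 1 or gain 2 (log2 fold changes 0.49 to 0.56), and Tgfb2 without control 1, control 2, gain 1 or gain 2 (-0.55 to -0.46). Tgfb3 lost the call without control 1, gain 1 or gain 2 (log2 fold changes -0.77 to -0.72), and Fst without gain 2 (-2.02).

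The neighbouring BMP pathway held 5 risers and 3 fallers among 24 (median 0.15, and -0.062 to 0.17 over the leave-one-out fits). On the rising side were the ligand Gdf6 (2123, 1977 and 1343 in the controls and 6093 and 4707 with TCF21 gain), the transducer Smad1 (2714, 2972 and 2687 in the controls and 3969 and 4229 with TCF21 gain), the inhibitory Smad6 (807, 929.8 and 892 in the controls and 1855 and 1396 with TCF21 gain) and the helix-loop-helix targets Id1 (684, 627 and 466 in the controls and 1339 and 1337 with TCF21 gain) and Id2 (6274, 4833 and 5834 in the controls and 10201 and 9841 with TCF21 gain). On the falling side were the extracellular BMP binders Chrdl1 (479, 444 and 560.5 in the controls and 107 and 118 with TCF21 gain) and Bmper (5380.2, 4642 and 6559 in the controls and 1898 and 1867 with TCF21 gain) and the decoy receptor Bambi (1126, 1179.7 and 1409 in the controls and 739 and 638 with TCF21 gain). Chrdl1 fell 4.39-fold (log2 fold change -2.12 with SE 0.174, adjusted p = 0.00377). Id proteins lack a DNA-binding region and capture the E proteins that TCF21 pairs with. Id4 rose too (222, 197 and 161 in the controls and 557 and 417 with TCF21 gain), so 3 of the 18 tested bHLH partners, Id and Twist factors rose and none fell. Chrdl1 and Bmper passed in each of the 5 leave-one-out fits. Id1, Id2 and Id4 lost the call without gain 1 or gain 2 (log2 fold changes 0.81 to 1.53), and Gdf6 without gain 1 (1.40). Smad1 lost the call without control 1, gain 1 or gain 2 (log2 fold changes 0.51 to 0.60), and Smad6 without control 1 or gain 1 (0.67 to 0.82). Bambi lost the call without control 1, gain 1 or gain 2 (log2 fold changes -0.95 to -0.74).

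Of 44 Wnt pathway genes 1 rose, Wnt4, and 3 fell (median -0.11), where 1.57% of all genes tested rose and 2.57% fell. Wif1, a secreted Wnt inhibitor, was 2247, 1344 and 1653 in the controls and 282 and 369 with TCF21 gain, a 5.37-fold fall (log2 fold change -2.40 with SE 0.223, adjusted p = 0.005197). The Wnt receptors Fzd6 and Fzd5 were 608, 621 and 341 in the controls and 78.6 and 133 with TCF21 gain and 127, 106 and 116 in the controls and 50.3 and 38.6 with TCF21 gain, in that order. In the PDGF, FGF and IGF axes, which include growth factors of fibroblasts, 7 of 27 fell and 1 rose (median -0.41). The PDGF ligands Pdgfa and Pdgfc were 369.8, 373 and 301 in the controls and 129 and 173 with TCF21 gain, and 214, 164 and 203 in the controls and 70.05 and 72.4 with TCF21 gain. The FGF ligands Fgf7, Fgf9 and Fgf18 fell 2.32-fold, 3.67-fold and 2.19-fold, and the receptor-like Fgfrl1 and Pdgfrl 2.06-fold and 1.703-fold. The riser was the receptor Fgfr3, at 486, 308 and 374 in the controls and 1199.7 and 780.4 with TCF21 gain. Whichever library was left out, Wif1 still passed. Pdgfc, Fgf7, Fgf9, Fgfrl1 and Pdgfrl lost the call without control 1, gain 1 or gain 2 (log2 fold changes -1.89 to -0.71), and Fzd6 without control 1 or gain 1 (-2.16 to -1.91). Fzd5 lost the call whichever library was left out (log2 fold changes -1.56 to -1.19), and Pdgfa without control 1, control 2, gain 1 or gain 2 (-1.41 to -1.001). Fgf18 lost the call without control 1 or gain 2 (log2 fold changes -1.07 to -0.97), and Fgfr3 without control 2, gain 1 or gain 2 (1.03 to 1.65).

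A receptor for each infused agent was lower with TCF21 gain, though neither call held with fewer libraries or with equal library totals. Agtr1a, the main angiotensin II receptor of fibroblasts, was 199.8, 338 and 275 in the controls and 67.4 and 119 with TCF21 gain (log2 fold change -1.55 with SE 0.322, adjusted p = 0.0451). Adra1a, an alpha-1 adrenergic receptor that phenylephrine activates, was 43.3, 38.1 and 118 in the controls and 4.39 and 9.15 with TCF21 gain. Ace, which makes angiotensin II, was 41443, 38463 and 44065 in the controls and 77697 and 61672 with TCF21 gain, a 1.69-fold rise. These were the only members past the threshold among 18 angiotensin, adrenergic and endothelin genes tested (median -0.14). Agtr1a and Adra1a lost the call whichever library was left out (log2 fold changes -3.45 to -1.14), and Ace without control 1, control 2, gain 1 or gain 2 (0.58 to 0.91).

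Retinoid genes moved in both directions, with 3 risers and 3 fallers among 20. Beside Crabp1, the risers were Aldh1a2, which makes retinoic acid in epicardium and mesenchyme (7113, 6911 and 5612 in the controls and 13283 and 16968 with TCF21 gain, log2 fold change 1.21 with SE 0.145, adjusted p = 0.00954), and the nuclear receptor Rxra (1944, 978 and 1664 in the controls and 3525 and 3601 with TCF21 gain). Cyp26a1, which degrades retinoic acid and is among its best known targets, was 369, 413 and 322 in the controls and 88.6 and 83.3 with TCF21 gain, a 4.28-fold fall (log2 fold change -2.08 with SE 0.189, adjusted p = 0.005197). Aldh1a3, another enzyme that makes retinoic acid, was 1289, 1011 and 912 in the controls and 645 and 449.6 with TCF21 gain, and the retinal reductase Dhrs3 was 2230.5, 2907 and 2779 in the controls and 1359.9 and 1462 with TCF21 gain. Aldh1a2 is also an epicardial marker; 3 of the 11 epicardial and mesothelial markers were in the table, and their sum, 7366.4 to 8961.2 in the controls and 14697.2 to 18587.1 with TCF21 gain, is mostly Aldh1a2 itself. Of the others, Tbx18 was 1845, 1715 and 1747 in the controls and 1411 and 1608 with TCF21 gain and Wt1 3.27, 13.96 and 7.04 in the controls and 3.000 and 11.9 with TCF21 gain. Both gain libraries lay below every control for Tbx18, and for Wt1 the groups overlapped at low counts. Cyp26a1 passed in each of the 5 leave-one-out fits. Aldh1a2 lost the call without gain 2 (log2 fold change 1.03), and Rxra without gain 1 or gain 2 (1.26 to 1.29). Aldh1a3 lost the call without control 1, control 2, gain 1 or gain 2 (log2 fold changes -1.23 to -0.71), and Dhrs3 without gain 1 or gain 2 (-0.95 to -0.84).

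**Figure D3:**
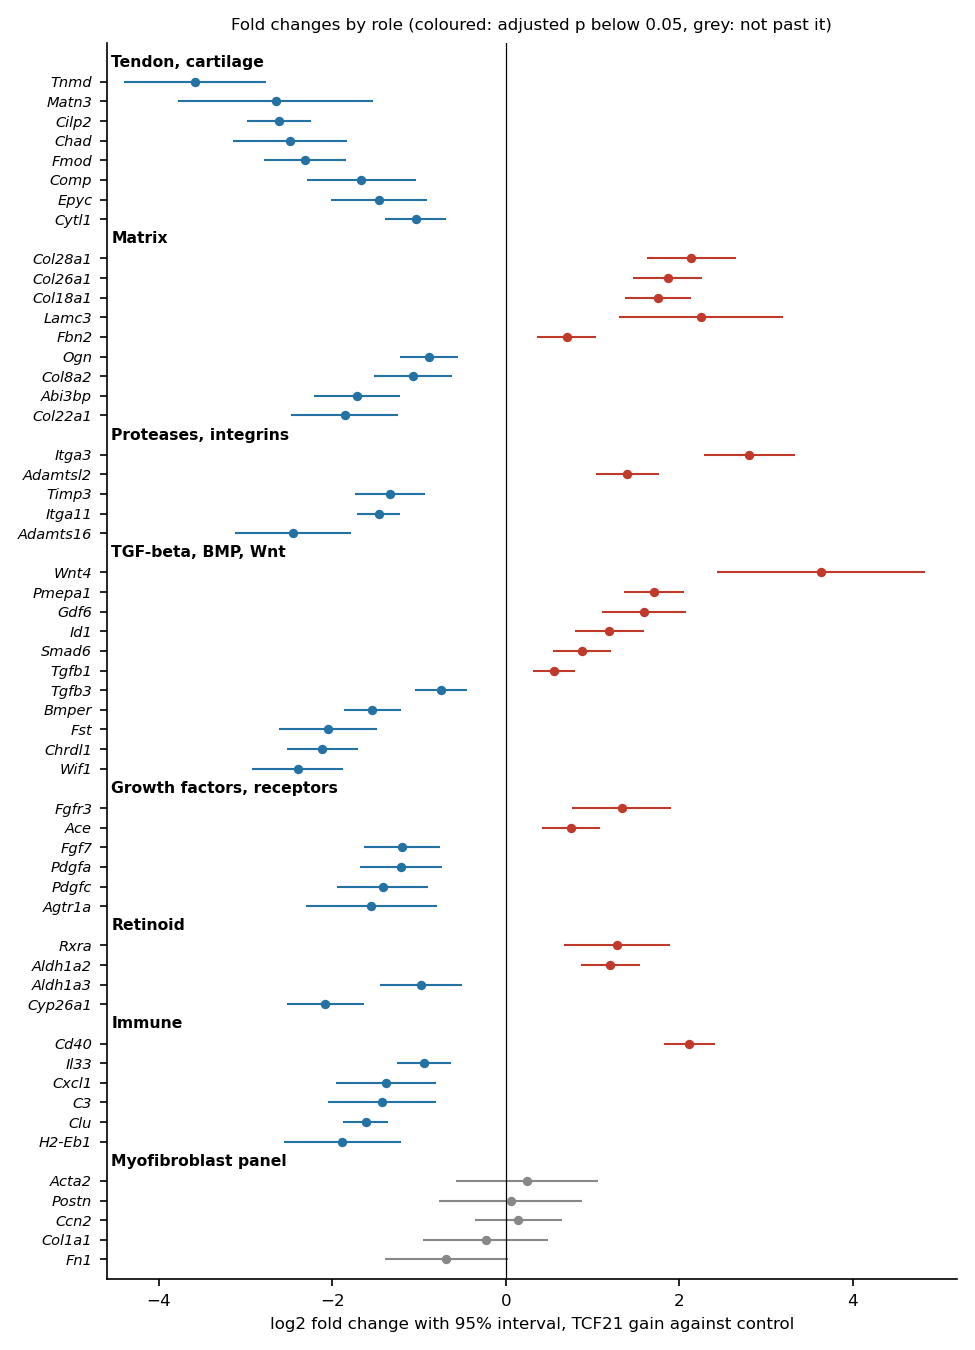
Points are log2 fold changes of TCF21 gain against control for genes of several functional groups, and bars their 95% intervals from limma. Red and blue mark genes with an adjusted p below 0.05 and grey those that did not pass. The tendon and cartilage genes shown are a selection that lies below 0, where 23 of the 30 tested on that list do, the signalling groups hold both directions, and the intervals of the 5 myofibroblast genes at the foot include 0.

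Most of the immune genes that passed fell, but so did most calls among all genes tested (1.57% higher and 2.57% lower). Of 44 cytokine and chemokine genes 6 fell and none rose (median -0.24). The alarmin Il33 was 2883, 3008 and 2536 in the controls and 1280.2 and 1646 with TCF21 gain, the neutrophil attractant Cxcl1 4661, 3473 and 6075 in the controls and 2136 and 1461 with TCF21 gain and the chemokine Cxcl16 2702, 2693 and 3278 in the controls and 1879.8 and 1964 with TCF21 gain. The interleukin-11 receptor Il11ra1, through which fibroblasts respond to a profibrotic cytokine, was 9291, 10909 and 10055 in the controls and 5270.4 and 5506 with TCF21 gain (log2 fold change -0.90 with SE 0.09499, adjusted p = 0.00702). Tnfaip3, a brake on NF-kappaB, fell 1.91-fold, and Ccl19, which has near-identical copies in the mouse genome and is therefore uncertain, 3.05-fold. Among 24 complement genes, C3 (68361, 45186 and 68096 in the controls and 28733 and 17044 with TCF21 gain), clusterin, Clu (1182, 1113 and 1103 in the controls and 354 and 384 with TCF21 gain), and the membrane inhibitor Cd59a fell and the protease Masp1 rose (317, 404 and 277 in the controls and 1013 and 683 with TCF21 gain). In 20 antigen presentation genes (median -0.48), the costimulatory receptor Cd40 was 291, 328 and 317 in the controls and 1414 and 1296 with TCF21 gain, a 4.34-fold rise (log2 fold change 2.11 with SE 0.124, adjusted p = 0.00114), whereas the class II chain H2-Eb1 (130.5, 141 and 145 in the controls and 46.1 and 29.4 with TCF21 gain) and the peptide-loading factor Tapbp (1.48-fold) fell. Of 43 interferon-induced genes 2 fell, Ifi27 (3477, 3745 and 3931 in the controls and 1706 and 1989 with TCF21 gain) and Gbp2 (1.38-fold). The medians of the interferon and complement lists were -0.12 and -0.18. None of 21 macrophage and monocyte markers passed, and 19 of them lay above the control level (median log2 fold change 0.58). The median of that list relative to the control mean was -0.21, -0.095 and 0.34 in the controls. It was 0.14 in gain 1 and 1.03 in gain 2. Their sum was 2958.8 to 4472.8 in the controls and 3466.0 and 6387.8 in gain 1 and gain 2. Lyz2 was its largest part (887, 982 and 1324 in the controls and 1153 and 2771 with TCF21 gain). Whichever library was left out, Il11ra1, Clu, Cd40 and Ifi27 still passed. Cxcl1, Cxcl16, Tnfaip3 and Tapbp lost the call without control 1, gain 1 or gain 2 (log2 fold changes -1.66 to -0.48), and Ccl19 and Cd59a without control 1, control 2, gain 1 or gain 2 (-1.65 to -0.68). Il33 lost the call without control 1 or gain 1 (log2 fold changes -0.93 to -0.77), and C3 without control 1, control 3 or gain 2 (-1.33 to -1.05). Masp1 lost the call without control 1, gain 1 or gain 2 (log2 fold changes 1.05 to 1.62), and H2-Eb1 without control 1 or gain 2 (-1.93 to -1.57). Gbp2 lost the call whichever library was left out (log2 fold changes -0.58 to -0.36).

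Immediate early genes, which respond to stimuli within minutes and also to the handling of tissue, were lower as a list. Of 32 tested, 7 fell and 1 rose, with a median of -0.66. Zfp36, which destabilizes inflammatory transcripts, was 52045, 40579 and 68468 in the controls and 23559 and 20724 with TCF21 gain (log2 fold change -1.25 with SE 0.211, adjusted p = 0.02404), and Gadd45b was 4418, 4560.9 and 5026 in the controls and 2134 and 2030.3 with TCF21 gain (log2 fold change -1.16 with SE 0.0901, adjusted p = 0.00308). Btg2, Fosb, Klf2, Jund and Ier3 fell 2.46-fold, 2.37-fold, 1.85-fold, 1.73-fold and 1.697-fold. Egr3 went the other way, at 644, 563 and 762 in the controls and 1648 and 1771 with TCF21 gain. The median of the list's members relative to the control mean was -0.0029, -0.25 and 0.26 in the 3 controls and -0.45 and -0.80 in the gain libraries, so both gain libraries lay below every control. Controls spread widely here, and whether the time from tissue to sort differed between libraries is not stated in the labels. The clock-controlled transcripts Dbp (385, 827 and 517 in the controls and 211 and 131 with TCF21 gain), Nr1d1 (4176, 6789.9 and 6562 in the controls and 1806 and 2479 with TCF21 gain) and Nr1d2 (3350.3, 4706 and 4299 in the controls and 2138 and 2028 with TCF21 gain) fell too, 3 of 18 clock genes with none higher, and the hour of collection is likewise not stated. With each library left out in turn, Egr3 and Gadd45b passed in all 5 fits. Zfp36, Fosb, Klf2, Jund and Ier3 lost the call without control 1, gain 1 or gain 2 (log2 fold changes -1.40 to -0.66), and Nr1d1 and Nr1d2 without gain 1 or gain 2 (-1.66 to -0.93). Btg2 lost the call without gain 2 (log2 fold change -1.15), and Dbp whichever library was left out (-2.06 to -1.38).

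Genes of DNA replication and mitosis had the highest median of all pathway lists, 1.19, yet only 1 of 42 passed the threshold: Mcm2, a subunit of the replicative helicase (709, 604 and 397 in the controls and 1103 and 1366 with TCF21 gain, log2 fold change 1.15 with SE 0.242, adjusted p = 0.0473). All 42 had a fold change above 0, and for 40 of them the groups did not overlap, where 19.1% of all genes were higher without overlap. Mki67, a mark of cycling cells chosen after its values were seen, was 1329, 831 and 299 in the controls and 2097 and 1693 with TCF21 gain (log2 fold change 1.44, adjusted p = 0.193). Control 3 was lowest for Mki67. As medians over the list, the libraries stood at 0.66, 0.25 and -0.88 for controls 1 to 3 and at 1.26 for both gain libraries, and without control 3 the median log2 fold change was 0.77. Ccnd1, cyclin D1, which starts the G1 phase, was 529.9, 435 and 441 in the controls and 1047 and 1178 with TCF21 gain (log2 fold change 1.25 with SE 0.137, adjusted p = 0.00713), the 1 member to pass among 18 G1 cyclins and CDK inhibitors. Of 20 p53 response genes, Btg2, Plk2 (1975, 2062 and 2066 in the controls and 1160.5 and 1219 with TCF21 gain) and Sesn1 (3951, 4059 and 4137 in the controls and 2652 and 2716 with TCF21 gain) fell and none rose. Plk2 and Sesn1 lost the call without gain 1 or gain 2 (log2 fold changes -0.81 to -0.58), and Mcm2 without control 1, control 2, gain 1 or gain 2 (0.99 to 1.32). Ccnd1 lost the call without gain 2 (log2 fold change 1.16).

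**Figure D4:**
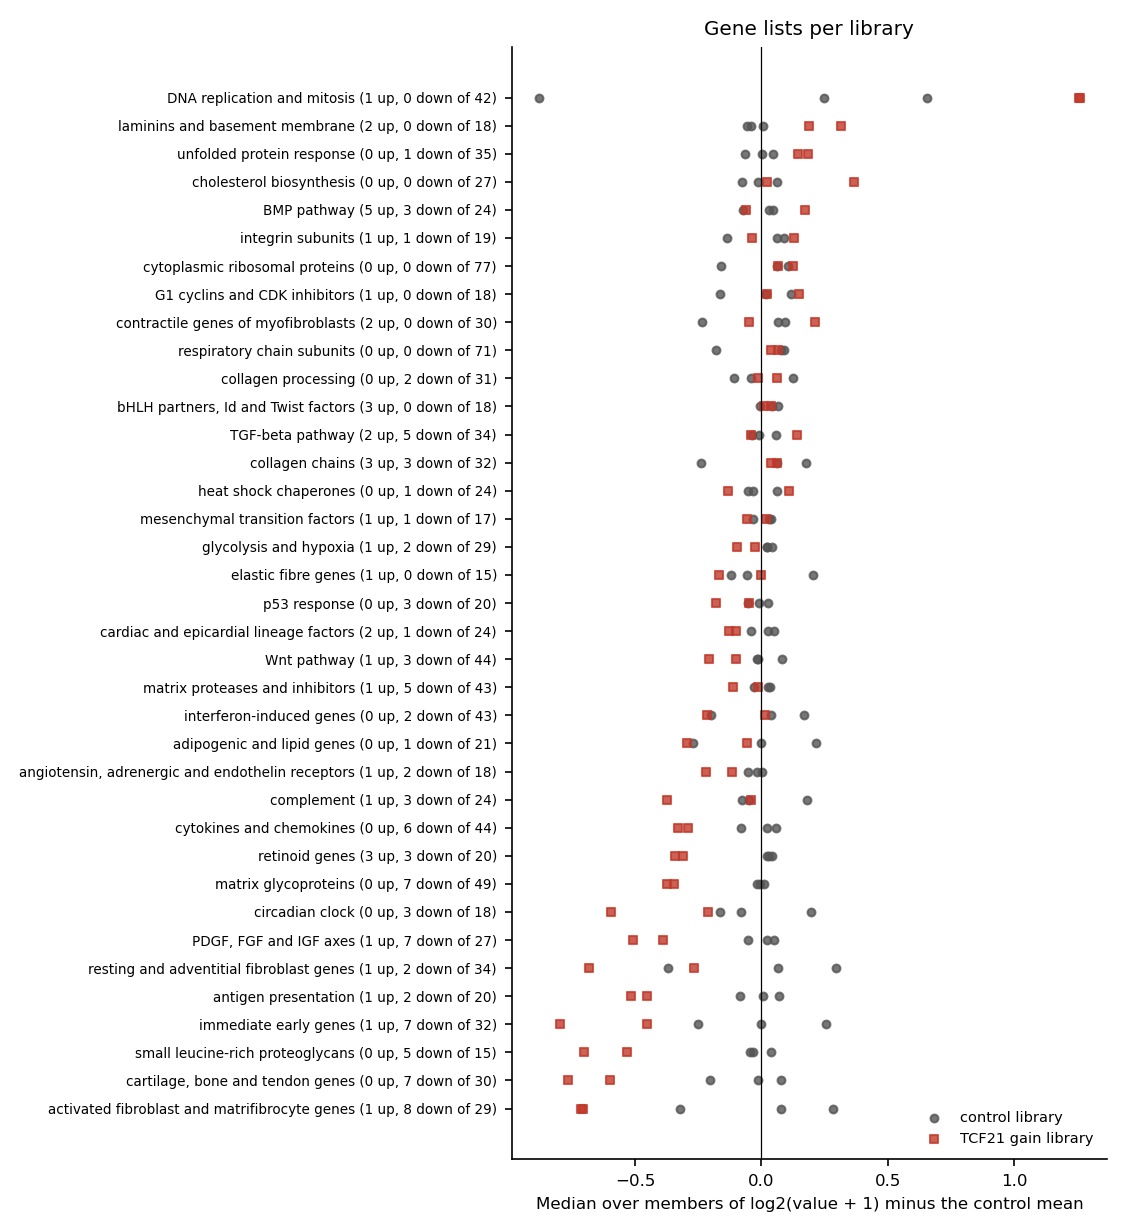
For each pathway list, points give the median over its tested members of log2(value + 1) minus the control mean, with grey circles for the 3 control libraries and red squares for the 2 TCF21 gain libraries. Lists are ordered by median log2 fold change, and their labels count the members past the threshold in each direction: activated fibroblast, cartilage and tendon, and proteoglycan genes lie lowest, and replication and mitosis genes highest, with wide spread between controls.

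Metabolic and housekeeping lists held few calls. None of 71 respiratory chain subunits, 77 ribosomal proteins or 27 cholesterol synthesis genes passed in either direction, with medians of 0.049, 0.087 and 0.17. The first of these ran from -0.04 to 0.092 with 1 library left out. Over all genes, 3138 had an unadjusted p below 0.05. Of 29 glycolysis and hypoxia genes, Egln1, the oxygen-sensing prolyl hydroxylase that marks HIF for decay, was 302, 188 and 257 in the controls and 977 and 1703 with TCF21 gain, a 5.39-fold rise (log2 fold change 2.40 with SE 0.2803, adjusted p = 0.00895), and the hypoxia targets Ndrg1 (2113, 1791 and 2121 in the controls and 1142 and 760.0 with TCF21 gain) and Eno2 (282, 321 and 411 in the controls and 144 and 177 with TCF21 gain) fell. Apoe, which carries lipid, was 25295, 18609 and 43779.8 in the controls and 9386 and 9592 with TCF21 gain, the only faller among 21 adipogenic and lipid genes, none of which rose. In the heat shock and unfolded protein lists 1 gene each fell and none rose, Dnajb4 (1.43-fold) and Ppp1r15a (2.01-fold). Whichever library was left out, Egln1 still passed. Eno2 and Dnajb4 lost the call whichever library was left out (log2 fold changes -1.21 to -0.38), and Apoe and Ppp1r15a without control 1, gain 1 or gain 2 (-1.59 to -0.94). Ndrg1 lost the call without control 1 or gain 2 (log2 fold changes -1.06 to -0.81).

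Lineage factors of heart and epicardium gave 2 risers, Tcf21 and the T-box factor Tbx20 (17669.5, 19222 and 15462 in the controls and 31393 and 25493 with TCF21 gain), and 1 faller, Osr1 (1314, 969 and 1296 in the controls and 734 and 613 with TCF21 gain), in 24 tested. Among factors of mesenchymal transition, Snai1 was 475, 512 and 457 in the controls and 893 and 903 with TCF21 gain (log2 fold change 0.90 with SE 0.116, adjusted p = 0.0115) and Klf2 fell, 1 each of 17. Markers of other cells were present at low summed levels. Mural markers summed to 36629.9 to 42317.5 in controls and 30085.0 to 31877.0 with gain, and cardiomyocyte markers to 14192.3 to 15493.9 and 14157.8 to 17947.9. The mural sum is mostly Pdgfrb and the cardiomyocyte sum mostly Atp2a2. Lymphatic markers summed higher with gain (2956.5 to 3126.7 against 1775.1 to 2013.6), mainly through Pdpn, which fibroblasts also express (1611, 1618 and 1469 in the controls and 2535 and 2711 with TCF21 gain). Endothelial markers summed to 17068.9 to 20220.8 in controls and 16062.5 to 20426.5 with gain, a sum that rests mostly on Tek and Eng. As a list their median log2 fold change was 0.30, with 12 of 16 above the control level and only Tek past the threshold. The median of the list relative to the control mean was 0.96 in gain 1 and -0.16 in gain 2, so the 2 gain libraries stood apart. Gain 1 lay above every control for Vwf (32.1, 14.1 and 25.5 in the controls and 174 and 36.00 with TCF21 gain), Cd36 (119.7, 66.5 and 76.3 in the controls and 265 and 68.96 with TCF21 gain) and Kdr (86.5, 30.7 and 75.8 in the controls and 153 and 30.7 with TCF21 gain). Erythroid and platelet markers, 8 of 12 in the table, summed to 292 to 436 in controls and 395 to 485 with gain, with a median log2 fold change of 1.27, 5 of 6 tested above the control level and none past the threshold. Single markers of other lists passed: Des (635, 899 and 823 in the controls and 1295 and 1402 with TCF21 gain) and Actc1 (134, 154 and 102 in the controls and 336 and 286 with TCF21 gain) rose and Tek (9442, 7729 and 10698 in the controls and 5687 and 4943 with TCF21 gain) fell. Lymphocyte markers, 3 of 16 in the table, summed to 101 to 198 and 110.4 to 116.9. Of all markers in the table, Mmrn1, Hba-a2 and Hbb-bt were at 0 in at least 1 library. The part of such cells in these results was not tested. Tbx20, Des and Actc1 lost the call without control 1, gain 1 or gain 2 (log2 fold changes 0.55 to 1.38), and Snai1 and Pdpn without gain 1 or gain 2 (0.70 to 0.91). Osr1 lost the call without control 1, control 3, gain 1 or gain 2 (log2 fold changes -0.95 to -0.69), and Tek without control 1, gain 1 or gain 2 (-0.90 to -0.70).

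The same infusion was given to mice that lose Tcf21 through Tcf21-MerCreMer (Tcf21MCM) and floxed Tcf21 (Tcf21fl/fl), against controls with that Cre alone, in a table normalized apart from this one (2 loss and 3 control libraries, none shared). Levels are therefore set side by side and each fold change is within its own table. Tcf21 was lower with loss (log2 fold change -3.17, adjusted p = 0.00494), and 135 of 14799 genes passed (0.912%). Among 14319 genes tested in both tables, 15 passed in both, which is 2.47% of the 608 genes called with gain and 12.1% of the 124 called with loss. Of the 15, 13 moved in opposite directions and 2 in the same direction. Adamtsl2 was 22983, 27228 and 26178 in the gain controls, 77781 and 57679 with gain, 11075, 10298 and 10615 in the loss controls and 5434 and 4737 with loss (log2 fold changes 1.40 and -1.07, adjusted p = 0.007595 and 0.00659). Apart from Tcf21, Adamtsl2, Fmod and Ccnd1, genes named here were taken from the 15 after their values were seen. Scml4, a Polycomb-related protein, was 2905, 2342 and 2208 in the gain controls, 8812 and 7856 with gain, 1630.1, 1425 and 1519.9 in the loss controls and 953 and 746 with loss. Tspan9, a tetraspanin, and Epas1, the hypoxia-inducible factor HIF-2 alpha, likewise rose with gain and fell with loss (log2 fold changes 0.73 and -0.62, adjusted p = 0.0179 and 0.0335 for Tspan9, and log2 fold changes 0.56 and -0.76, adjusted p = 0.0184 and 0.0477 for Epas1). So did Bean1 (log2 fold changes 1.53 and -0.88, adjusted p = 0.005395 and 0.03902) and the splicing factor Rbfox1 (log2 fold changes 1.85 and -3.50, adjusted p = 0.00985 and 0.0361). Sprn, Podxl2 and Gpr137b fell with gain and rose with loss, with log2 fold changes of -1.09 and 0.98, -0.95 and 0.81, and -0.60 and 1.17. The remaining opposite genes were Tcf21 and the predicted genes Gm2423, Gm53410 and Gm54268.

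Fmod and Ccnd1 did not follow that pattern. Fmod was lower with gain and lower with loss: 52307, 74084 and 45181 in the gain controls, 11532 and 10952 with gain, 30836, 36817 and 45490.5 in the loss controls and 14535 and 13433 with loss (log2 fold changes -2.32 and -1.41, adjusted p = 0.00446 and 0.0236). Ccnd1 was higher in both: 529.9, 435 and 441 in the gain controls, 1047 and 1178 with gain, 843, 802 and 943 in the loss controls and 1639.7 and 1616 with loss (log2 fold changes 1.25 and 0.92, adjusted p = 0.00713 and 0.0162). Comp, lower with gain, had a log2 fold change of -1.14 with loss that did not pass (adjusted p = 0.0534). For Eln neither passed (log2 fold changes 0.86 and -0.78, adjusted p = 0.0566 and 0.0529). Postn, Acta2 and Col1a1 passed in neither table. With each library left out in turn, Adamtsl2, Bean1, Fmod, Scml4 and Tcf21 passed in all 5 fits of the gain table, whereas none of the 15 passed in all 5 fits of the loss table (Tcf21 passed in 3, with log2 fold changes of -3.41 to -2.91). The directions of all 15 held in every such fit of both tables. Whether an effect of loss differs from that of gain was not tested across the tables.

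**Figure D5:**
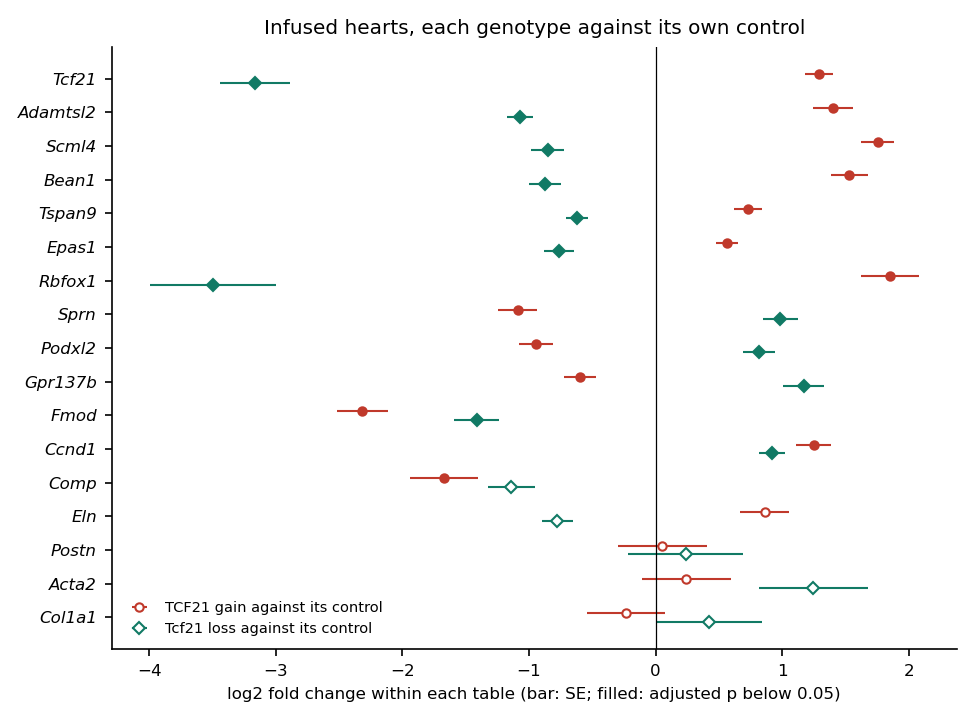
Log2 fold changes within each table are shown for the 12 genes with standard names that passed in both and for 5 others, with red circles for TCF21 gain and green diamonds for Tcf21 loss, each against its own control. Bars are SE, and filled symbols have an adjusted p below 0.05: 10 of the genes filled in both lie on opposite sides of 0, and Fmod and Ccnd1 on the same side.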

How the data were processed

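RNA of sorted cells was amplified as cDNA with a SMART-seq low-input kit, per the labels' protocols. Deposited values are a normalized signal: counts per gene that the authors scaled within each table. The submitters' processing notes name kallisto, DESeq2 and GRCm38; no version or annotation is given in the sources used here. Low values lay on whole-read steps (within 0.03) in only 51.5% to 67.4% of cases. Read counts could therefore not be restored for a count model.

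Of 17730 genes listed, those with a mean of at least 10 (15369) were compared by limma 3.58.1 (R 4.3.3). Values were log2(value + 1), the variance trend was on in eBayes, tests were two-sided, and p was adjusted by Benjamini-Hochberg with a threshold of 0.05. A fit held only its 2 groups, without covariates. This scale understates the change of low genes, and the printed fold is the ratio of group means. The infused loss table was fitted likewise. The scripts' tests were tested on simulated data. GENCODE vM21 symbols matched 91.0% of genes tested.

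Named genes are a panel of 15, the 10 largest rises and 10 largest falls (mean at least 50, no overlap, standard name), every list member that passed, and, for lists where none passed, up to 3 with the smallest p. Others are said to be chosen after their values were seen. Members and the 48 lists (37 pathway, 11 marker, 1211 genes) were chosen with earlier results of these data known. Lists are given as counts and medians without a set test. Because 1.57% of all genes tested rose and 2.57% fell, a few calls in a list are not read as a result about that list. Alternatives varied the pseudocount, filter, scaling, variance model, library weights, replicate block and each library.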

Additional observations from a re-analysis of the deposited data

How the results depend on the processing

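The count of 637 genes with TCF21 gain (242 higher, 395 lower) stayed within 1.5 times under other pseudocounts (631 and 665), other filters (650 and 616), equal totals (606 in all), median-ratio scaling (637) and quantile normalization (643). It fell to 25 (11 and 14) without the variance trend, 24 of them calls of the main analysis. Tcf21 itself then had the same log2 fold change of 1.29 with an adjusted p of 0.0623, against 0.000205 to 0.0268 under its other alternatives. The count rose to 1013 (376 and 637) with library weights. With the replicate number as a block, a fit to which control 3 adds nothing because it has no partner, it was 1842 (768 and 1074), 635 of the 637 among them. Whether equal numbers pair the libraries cannot be told here. Deviations from the group means correlated at 0.0953 and 0.0622 for the 2 same-numbered pairs and at -0.0953 to 0.0326 for the others. With 2 gain libraries the deviations of gain 1 and gain 2 mirror each other, so these values are not independent. Leaving out 1 library gave 118 to 819 in all, 46 to 342 higher and 72 to 477 lower. The count was 118 without gain 2, 165 without gain 1 and 215 without control 1 (116 higher, 99 lower), and a lone gain library is assumed to vary like the controls. None of the 637 changed sign under these alternatives. The named genes counted next are only those that the naming rules chose, without genes named on other grounds. Of 134 named genes past the threshold, 28 passed whichever library was left out, 73 in at least 3 of these 5 fits, 9 without the variance trend and 114 with equal totals. The 20 lost with equal totals were all falls: Adh1, Adra1a, Agtr1a, Aldh1a3, Apoe, Cd59a, Col6a6, Cthrc1, Cxcl16, Dnajb4, Eno2, Fosb, Gbp2, Jund, Ltbp1, Osr1, Pdgfrl, Ppp1r15a, Tek and Tgfb2. Of 48 list medians, 24 moved by more than the spread between controls with equal totals (Wnt pathway from -0.11 to -0.014, collagen chains from 0.0045 to 0.10), 23 without gain 1 and 18 without gain 2.

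The 135 genes of infused loss became 72 without the variance trend, 308 with library weights, 1462 with the replicate block and 32 to 175 with 1 library left out. Genes that had not passed turned direction in a few settings. With library weights Postn was -0.049. With the replicate block Postn was -0.15 and Acta2 -0.15, with quantile normalization Col1a1 was 0.17 and Thbs4 0.022, all as log2 fold changes. Over the fits that leave out 1 library, Pdgfra ran from -0.021 to 0.30, Postn from -0.15 to 0.17, Acta2 from -0.15 to 0.48, Thbs4 from -0.38 to 0.017 and Ccn2 from -0.040 to 0.33. The causes of these differences were not tested.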

Other observations

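Genes outside the lists that passed with small p-values included the following, which were picked for description after their values were seen. Fblim1, migfilin, which links filamin to cell adhesions, was 2527, 2659 and 2192 in the controls and 7638 and 7326 with TCF21 gain (log2 fold change 1.61 with SE 0.103, adjusted p = 0.00157, limma). The matrix protein Olfml2b was 13477, 12282 and 12322 in the controls and 4623 and 4449.8 with TCF21 gain, 2.798-fold lower (log2 fold change -1.48 with SE 0.0854, adjusted p = 0.00114). Higher with gain were the calcium-activated potassium channel Kcnn3 (239, 222 and 272 in the controls and 683 and 801 with TCF21 gain), the NMDA receptor subunit Grin3a (238, 182 and 187 in the controls and 1251 and 765 with TCF21 gain) and the store-operated calcium channel Orai2 (2321, 2499.6 and 2589 in the controls and 4471 and 4463 with TCF21 gain). The galanin receptor Galr2 was lower (143, 197 and 160.1 in the controls and 29.2 and 28.1 with TCF21 gain). Pde2a, a phosphodiesterase that cGMP stimulates, was 139, 111 and 87.1 in the controls and 631 and 948 with TCF21 gain, 7.03-fold higher. The thyroid hormone receptor Thrb was 1063, 1096 and 994 in the controls and 391.5 and 396 with TCF21 gain, the pseudokinase Trib2 2872, 3683 and 3215 in the controls and 8592 and 9509 with TCF21 gain and the amino acid transporter Slc7a5 891, 939 and 914 in the controls and 2088 and 1863 with TCF21 gain. The groups did not overlap for any gene of this paragraph, which held for every gene that passed.

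Within 5 Mb of Tcf21 on chromosome 10, 8 of 46 other genes tested passed (17.4%, against 4.14% of all genes), 4 higher and 4 lower. They were Arhgap18, Eya4, Heca, Moxd1, Mtfr2, Raet1d, Tnfaip3 and Vnn1. Within the same distance of Col1a1, the other gene in the name of the transgene, 7 of 113 passed (6.19%), and around Pdgfra, the source of the Cre, 1 of 36 (2.78%). The labels do not say whether Col1a1 names a promoter or the locus of the transgene, so whether that window holds the transgene is not known. What accounts for these shares was not tested.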
